A study of Arabidopsis thaliana with 16 samples.

Results

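Binding of the heat shock factor HSFA1b was examined at 9 Arabidopsis thaliana genes that encode protein disulfide isomerases and J proteins of the endoplasmic reticulum (ER). The genes were fixed by name and AGI locus, as PDIL1-1 (AT1G21750), PDIL1-2 (AT1G77510), PDIL1-3 (AT3G54960), PDIL2-1 (AT2G47470), PDIL2-2 (AT1G04980), PDIL2-3 (AT2G32920), ERdj3A (AT3G08970), ERdj3B (AT3G62600) and P58IPK (AT5G03160). The choice was made with earlier results of these data known, so shares set beside those of all genes are descriptions, not tests. They are 9 of 27444 protein-coding genes on chromosomes 1 to 5 in the RefSeq annotation. That annotation lists PDIL2-1 under the symbol UNE5. A peak was counted for a gene when it overlapped the gene or the 1 kb on either side of it.

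Proteins that enter the secretory pathway fold in the lumen of the ER. Protein disulfide isomerases form and rearrange the disulfide bonds of these clients, and they are reoxidised by ERO enzymes. ER J proteins bring unfolded clients to the HSP70 chaperone BiP and stimulate its ATPase. Many of these genes are known targets of the unfolded protein response (UPR), in which the transcription factors bZIP28 and bZIP60 act through promoter elements called ERSE, UPRE and G-box. Heat shock factors such as HSFA1b bind heat shock elements (HSEs), which are arrays of GAA and TTC units in alternation, each separated from the next by 2 bases.

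HSFA1b occupancy was measured by sequencing of immunoprecipitated chromatin (ChIP-seq) from leaves of plants of the ecotype Columbia 0, aged 5 weeks. NP:HSFA1b plants carried the HSFA1b gene fused to eYFP under its own promoter, from a single selected line, and 35S:HSFA1b plants carried HSFA1b fused to RFP under the viral 35S promoter. Plants of the non-stress (NS) condition stayed at 23 °C with 60% relative humidity. Those of the heat stress (HS) condition spent 30 min at 37 °C with 86% relative humidity. The 16 samples formed 8 groups of 2, namely both constructs and their controls under NS and HS. The control of NP:HSFA1b was the Col-0 wild type, and the genotype of the control for 35S:HSFA1b is not given in the sources used here. Plants of both constructs also kept their endogenous HSFA1b genes, which carry no tag and are not seen by the antibodies against the tags.

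Before calling each of the 4 peak lists, the caller had merged a pair of treatment libraries, so every value below is a single call with no replicate error and no test across samples. For its NP:HSFA1b ChIP-seq, the paper reports that a pair of independent plants from a single HS experiment supplied the combined data. The contrast of NS with HS in the NP lists therefore rests on that experiment. The NP pools held 6783161 fragments under NS and 2438702 under HS. The 35S pools held 19579327 and 13481546 in that order. The NP HS pool was therefore 0.36 times as deep as the NP NS pool. The control pools were shallower, with 1686242 fragments under NS and 1139036 under HS for NP. For 35S they held 12760222 and 4863174. The 35S NS list was called against 4 control libraries and the 35S HS list against 2. Both 35S HS control libraries were also among those of 35S NS, so these lists are not independent. Fold enrichment (FE) is the summit coverage over the background, as the caller gave it. In NP HS the background at the PDIL1-1, PDIL2-3 and ERdj3A peaks equalled the lowest of the list (3.59). The lowest background of the 35S lists was 92.3 under NS and 46.5 under HS. The HS value is in pileup units scaled by 0.721, so it cannot be set beside the NS value or the fragment counts below. The 35S peaks at the 9 genes also stood at the lowest of their lists, except the HS peak over PDIL1-1. At these peaks FE is a ratio to that lowest value, not to a local signal. Where a peak stood above the lowest value, FE also carried the counting error of its control, which no interval below covers. A main set of each list kept peaks with FE of at least 2, q of at most 0.05 and a summit outside the pericentromere, which left 876 NP peaks under NS and 1181 under HS, and 3444 and 1342 peaks for 35S. None of the 9 genes lay in the pericentromere.

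Under native expression, 2 of the 9 genes had a main-set peak in NS plants and 6 of 9 had one in HS plants. Across all protein-coding genes these shares were 4.14% under NS and 5.63% under HS. The NS genes were the J protein genes ERdj3A and ERdj3B. Under HS these were joined by 3 isomerase genes, PDIL1-1, PDIL2-2 and PDIL2-3, and by the third J protein gene, P58IPK. A peak under HS and not under NS was therefore called at 4 of 9 genes, against 3.61% of all genes. A peak in both conditions was called at 2 of 9, against 2.02%, and a peak under NS alone at 0 of 9, against 2.12%. PDIL1-2, PDIL1-3 and PDIL2-1 had no NP peak in either list, also when peaks with FE under 2 or within 2 kb of the gene were allowed. At HS all 3 J protein genes had a peak and 3 of the 6 isomerase genes did.

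**Figure D1:**
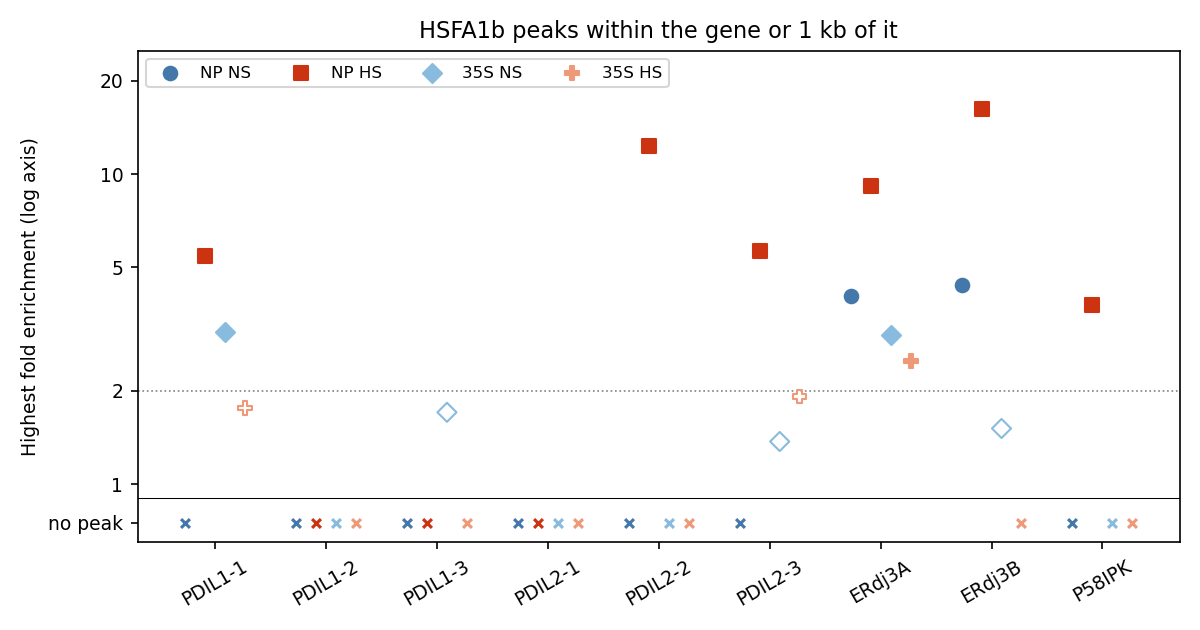
Highest FE (log axis) of any deposited peak within the gene or 1 kb of it, for each of the 9 genes in each of the 4 lists. Filled symbols are main-set peaks, open symbols are peaks with FE under 2 (dotted line), and crosses mark no peak. The 6 NP HS values run from 3.79 at P58IPK to 16.2 at ERdj3B, and PDIL1-2 and PDIL2-1 have no peak in any list.

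ERdj3B encodes an ER J protein that works with BiP and SDF2 in the folding of immune receptors at the plant cell surface. The gene lies on the minus strand at chr3:23150779-23153649 (TAIR10). Under NS its peak spanned 23153431 to 23153695, with a pileup of 127 fragments at the summit, FE 4.39 and −log10 q of 37.9. Under HS the peak spanned 23153216 to 23153739, with a pileup of 137 fragments, FE 16.2 and −log10 q of 114. The HS peak was wider, at 524 bp against 265 bp, and its summit was 3 bp from the NS summit. Both summits lay in the 5′ UTR, 89 and 92 bp downstream of the transcription start site (TSS). By FE the peak ranked 138 of 876 under NS and 8 of 1181 under HS.

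The FE of ERdj3B in HS plants was 3.70 times that in NS plants, a log2 change of 1.89. Scaled coverage, which is the summit pileup per 1000000 fragments of the pool, was 18.7 under NS (exact Poisson 95% interval 15.6 to 22.3) and 56.2 under HS (47.2 to 66.4), a log2 change of 1.59. These intervals do not overlap, but they cover only the counting error of the summit pileup. They take the summit as a fixed place, and say nothing of variation between plants. The background under the ERdj3B summit was above the lowest background of its list in both conditions, by 2.65 times under NS and 2.09 times under HS. A further NP HS peak within the 1 kb window, with FE 4.36, had its summit 84 bp from the TSS of the neighbouring gene AT3G62590 and 3127 bp from that of ERdj3B.

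ERdj3A, also known as TMS1, encodes an ER J protein needed for the heat tolerance of pollen tubes. It lies on the plus strand at chr3:2737297-2740549. Under NS its peak spanned 2737062 to 2737559, with a pileup of 51 fragments, FE 4.06, −log10 q of 13.7 and rank 180 of 876. Under HS the peak spanned 2737000 to 2737745, with a pileup of 41 fragments, FE 9.16, −log10 q of 25.5 and rank 80 of 1181. The summits lay 117 bp and 125 bp upstream of the TSS, 8 bp apart. FE was 2.26 times higher under HS, a log2 change of 1.17. Its scaled coverage was 7.52 under NS (5.60 to 9.89) and 16.8 under HS (12.1 to 22.8), a log2 change of 1.16.

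The start of ERdj3A overlaps that of the divergent gene AT3G08960, whose outermost TSS lies at 2737356, inside ERdj3A. The NP summits therefore also fell within the transcribed part of AT3G08960, and binding in this shared region cannot be assigned to either gene. ERdj3A also has 2 annotated transcripts. The outer one begins with an exon of 9 bases, and the inner one starts 156 bp further downstream, at 2737453. From the inner start the NP summits lay 273 bp and 281 bp upstream.

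PDIL2-2 had the strongest binding among the isomerase genes and among the 4 genes with a peak under HS alone. It encodes the paralog of PDIL2-3, an isomerase known for its part in pollen wall formation in Arabidopsis. The gene lies on the minus strand at chr1:1413644-1416218. Its NP HS peak spanned 1416061 to 1416376 (316 bp), with a summit 19 bp upstream of the TSS, a pileup of 77 fragments, FE 12.3, −log10 q of 55.8 and rank 30 of 1181. Its scaled coverage was 31.6 (24.9 to 39.5). No NP NS peak was called there.

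PDIL2-3 and PDIL1-1 had HS peaks of similar size. PDIL2-3 lies on the minus strand at chr2:13962213-13965531, and its peak spanned 13965321 to 13965616 (296 bp), with 25 fragments, FE 5.67 and rank 328 of 1181. PDIL1-1, a classical isomerase, lies on the plus strand at chr1:7645610-7648855, and its peak spanned 7645482 to 7645749 (268 bp), with 24 fragments, FE 5.45 and rank 360 of 1181. Their summits lay in the 5′ UTR, 91 bp and 41 bp downstream of the outermost TSS. PDIL1-1 also has an annotated inner start 91 bp further downstream, from which its summit lay 50 bp upstream. The scaled coverages of 10.3 (6.63 to 15.1) and 9.84 (6.31 to 14.6) differed by less than counting error.

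P58IPK encodes an ER J protein whose mammalian counterpart was named as an inhibitor of the kinase PKR. It lies on the plus strand at chr5:750101-752805. Its NP HS peak was the weakest of the 6, spanning 749873 to 750170 (298 bp), with a summit 123 bp upstream of the TSS. The pileup was 19 fragments, a scaled coverage of 7.79 (4.69 to 12.2), with FE 3.79, −log10 q of 4.68 and rank 823 of 1181. This FE was below the median of the NP HS main set, which was 4.56, whereas the other 5 genes were above it.

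**Figure D2:**
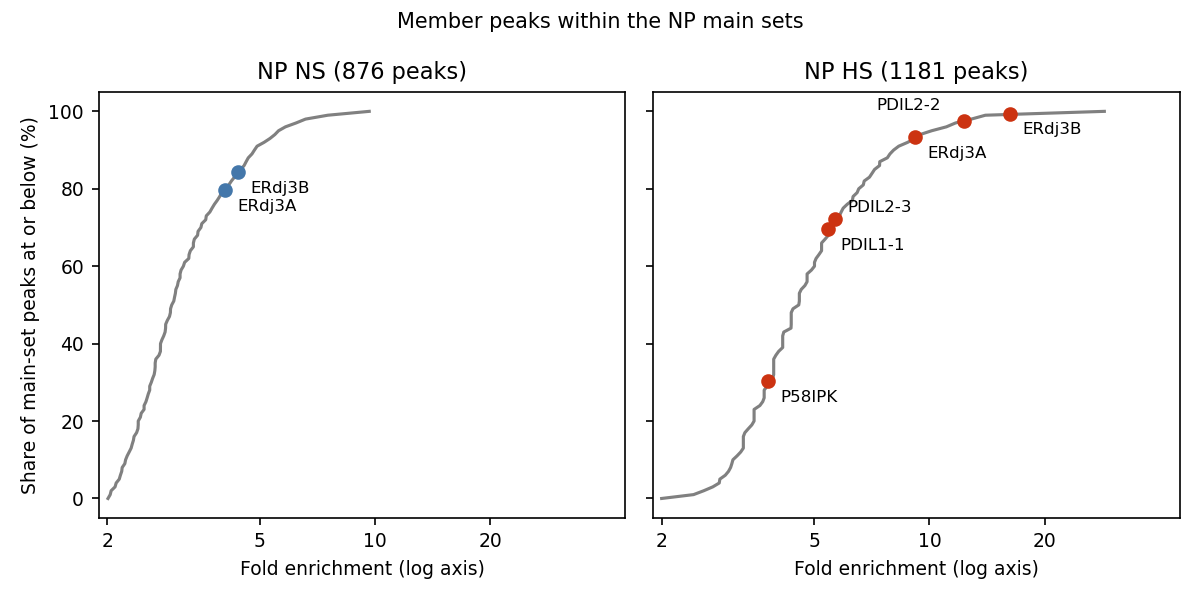
Cumulative share of main-set peaks (vertical axis, percent) at or below each FE (horizontal, log axis) in the NP main sets of NS and HS, with the peaks at the start of the named genes as points. ERdj3A and ERdj3B stand at 79.6% and 84.4% of the NS list. In the HS list ERdj3B, PDIL2-2 and ERdj3A stand above 93%, and P58IPK stands at 30.4%.

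The absence of a call under NS does not measure the absence of binding. At the lowest background of each list, the weakest peak called had FE 2.15 under NS and 2.83 under HS, with summit pileups of 24 and 12 fragments. Had the 4 genes called under HS alone held the same scaled coverage under NS, their summits would have carried 52.9 fragments at P58IPK, 66.8 at PDIL1-1, 69.5 at PDIL2-3 and 214 at PDIL2-2. Each of these is above 24 fragments, but that pileup was the lowest called at the lowest NS background alone, which was 10.6. The 4 genes were picked by their HS calls, so their HS coverage is likely to run high. The projection therefore cannot decide whether NS binding was absent at them. The NS background at these 4 genes is not known from the lists. At ERdj3B it was 28.2, above the lowest value of the list.

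At all 6 genes with an NP HS peak, the summit of the strongest peak lay within 250 bp of the outermost TSS. Among all 1546 genes with an NP HS main-set peak this share was 34.3%. Taken from the innermost annotated start, the count was 5 of 6 under HS and 1 of 2 under NS, because of ERdj3A. The peaks were narrow, and they covered between 2.59% (P58IPK) and 15.1% (ERdj3B) of each bound gene under HS. Under NS the peaks covered 8.08% of ERdj3A and 7.63% of ERdj3B. No NP summit lay in a coding exon or at the 3′ end of any of the 9 genes, apart from the peak assigned above to the TSS of AT3G62590.

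The sequences at these starts were searched on both strands for the elements that follow. The ERSE was taken as CCAAT and CACG separated by 10 bases, its variant ERSE-II as ATTGG and CCACG separated by 1 base, the G-box as CACGTG, and the UPRE as TGACGTGG or TGACGTGA. An HSE was taken as 3 alternating GAA and TTC units, and a shorter form with 2 units (GAANNTTC or TTCNNGAA) was also counted. The last letters of an ERSE can be the first letters of a G-box, so the counts of these elements are not independent. Matches are described as letters in a window, not as bound sites. The sequences below, from the TAIR10 genome on the strand of each gene, hold the elements found nearest to the NP HS summits, and their capitals mark the fixed letters of the matches. The first is chr1:1416213-1416288 (minus strand), from 70 bp upstream of the TSS to 5 bp downstream. The second is chr5:749926-750060 (plus strand), 135 bases that end 41 bp upstream of the TSS. The third is chr1:7645619-7645648 (plus strand), in the 5′ UTR, and the fourth is chr3:23153585-23153614 (minus strand), in the 5′ UTR.
PDIL2-2: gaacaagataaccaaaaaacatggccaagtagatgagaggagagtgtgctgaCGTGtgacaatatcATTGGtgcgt
P58IPK: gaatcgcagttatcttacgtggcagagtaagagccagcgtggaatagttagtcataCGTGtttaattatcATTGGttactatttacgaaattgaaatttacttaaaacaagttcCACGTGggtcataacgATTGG
PDIL1-1: acCCAATtagagatagcCACGTGgatgtat
ERdj3B: atcCACGTGgctaatatttATTGGttacga

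In PDIL2-2 the ERSE ended on the TSS itself, with its centre 10 bp from the NP HS summit. P58IPK held 2 ERSEs, centred 13.0 bp and 73.0 bp from the summit, the second of which shared its CACG with a G-box. In PDIL1-1 an ERSE and a G-box that shared the CACG were centred 21.0 bp and 12.5 bp from the summit. ERdj3B also had an ERSE and a G-box with shared letters, in the opposite orientation, with centres 43.0 bp and 51.5 bp from the summit. An ERSE lay wholly within 50 bp of the summit at 3 of the 6 genes (PDIL1-1, PDIL2-2 and P58IPK) and within 100 bp at 4, with ERdj3B added. Among all 1181 NP HS main-set summits, 1.78% had an ERSE within 50 bp. The 6 summits here were all near a TSS, unlike many of the 1181, so shares of all summits are not a matched background. A G-box lay within 50 bp at 1 gene and within 100 bp at 3, and 8.13% of all NP HS summits had one within 50 bp.

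HSE letters were absent from the 50 bp on either side of all 6 NP HS summits. This held for the form with 3 units, which 5.17% of all NP HS summits had, and for the form with 2 units, which 21.1% had. It also held for 3 units with 1 mismatch allowed, a search added after the data were seen, which 20% of all summits matched. The UPRE was likewise found at 0 of 6 summits and at 2.29% of all summits, and the ERSE-II at 0 of 6 and at 0.0847%. PDIL2-3 had none of the elements in its peak.

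From 400 bp upstream to 200 bp downstream of the 9 outermost starts, the single HSE with 3 units lay in ERdj3A, 117 to 129 bp downstream of the outer TSS. It stood in the first intron of the outer transcript and 39 to 27 bp upstream of the inner start. The NP NS and NP HS peaks both covered it, although its centre was 248 bp from the HS summit. Both peaks also held 6 matches to the form with 2 units, some of them parts of the longer element. The sites below are shown because they are the HSE letters nearest to the NP summit and the HSE with 3 units. The first is chr3:2737258-2737287 (plus strand), which is transcribed as part of AT3G08960, and the second is chr3:2737407-2737436 (plus strand). Capitals mark the GAA and TTC units.
ERdj3A, upstream: cggaatttattTTCagGAAatacgaaacaa
ERdj3A, first intron: tatgtcaTTCgaGAAatTTCctttttttcc

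**Figure D3:**
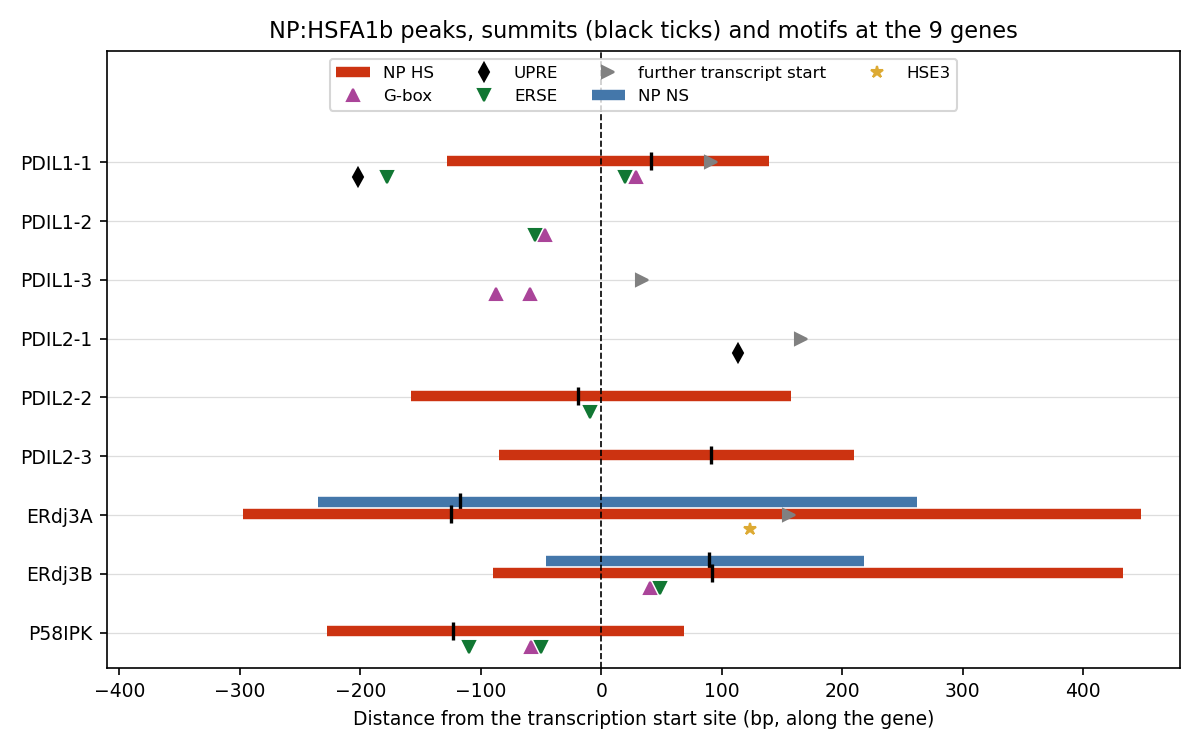
Peaks (bars) and summits (black ticks) of NP:HSFA1b under NS and HS at the 9 genes, by distance from the outermost TSS in bp, with triangles, diamonds and stars for motif centres and arrowheads for further transcript starts. All 6 HS summits lie within 125 bp of the dashed TSS line. ERSEs stand within 100 bp of the summits of PDIL1-1, PDIL2-2, ERdj3B and P58IPK, with G-boxes at the same genes except PDIL2-2, and both elements are also present at PDIL1-2, which has no peak.

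The elements were found at bound and at unbound genes. In the promoter window from 250 bp upstream to 50 bp downstream of the outermost TSS, an ERSE was found in 4 of the 9 genes. They were PDIL1-1, PDIL1-2, PDIL2-2 and P58IPK, against 0.849% of all promoters. The ERSE of ERdj3B, 40 to 58 bp downstream, ran past the window. A G-box was found in 5 of 9 and in 7.68% of all promoters, and a UPRE in 1 of 9 and in 2.16%. An HSE with 3 units was found in 0 of 9 and in 0.481%, and the form with 2 units in 1 of 9 and in 19.3%. PDIL1-2 held the form with 2 units 63 to 70 bp downstream of its TSS, outside the window. The ERSE-II was found in 0 of 9 and in 0.0692% of all promoters. Of the 3 genes with no NP peak, PDIL1-2, the closest relative of PDIL1-1, carried an ERSE and a G-box that shared letters, and PDIL1-3 carried 2 G-boxes. PDIL1-2 lies on the plus strand at chr1:29126648-29129700, and PDIL1-3 on the minus strand at chr3:20363260-20366874. PDIL2-1 (chr2:19481254-19484015, plus strand), a gene also known for its part in pollen tube guidance, had none of these but a UPRE 110 bp downstream of its outermost TSS. The PDIL1-2 and PDIL1-3 windows are printed for comparison with the bound genes, at chr1:29126578-29126612 (plus strand) and chr3:20366924-20366971 (minus strand), with capitals as before.
PDIL1-2: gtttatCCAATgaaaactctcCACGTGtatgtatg
PDIL1-3: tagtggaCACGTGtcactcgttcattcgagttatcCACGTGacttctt

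The peaks of the overexpressed protein were read in the same way. In the 35S lists a main-set peak was called at 2 of the 9 genes under NS (PDIL1-1 and ERdj3A) and at 1 of 9 under HS (ERdj3A). The shares among all protein-coding genes were 34.8% under NS and 18.8% under HS. A gene enters these counts and shares also when a broad peak overlaps it with its summit far away. The NS call at PDIL1-1 is such a case, with its summit 74679 bp from the TSS. Any deposited peak, with no limit on FE, was present at 5 of 9 genes under NS and 3 of 9 under HS, against 75.1% and 52.1% of all genes. No 35S peak was called at PDIL1-2, PDIL2-1, PDIL2-2 or P58IPK in either condition. PDIL2-2 and P58IPK were thus bound by the native construct under HS with no 35S call. The 35S lists had broader peaks, with median main-set widths of 1598.5 bp under NS and 3139 bp under HS against 350.5 bp and 299 bp in the NP lists, and a highest FE of 4.63 and 4.23. The lists of the 2 constructs also differ in antibody, depth and controls, so that construct and these factors cannot be told apart.

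ERdj3A was the 1 gene with a main-set peak in all 4 lists. Its 35S NS peak, 808 bp wide, had FE 3.02 and a pileup of 281 fragments, a scaled coverage of 14.4. The 35S HS peak at the same place, 694 bp wide, had FE 2.31 and 151 fragments, a scaled coverage of 11.2. The 35S summits lay 174 bp and 186 bp downstream of the outer TSS, which is 18 bp and 30 bp downstream of the inner start. The nearest outermost TSS was that of AT3G08960, at 115 bp and 127 bp. Both 35S peaks covered the HSE with 3 units, and the 50 bp on either side of each summit held 2 matches to the form with 2 units. A further 35S HS peak in the window, with FE 2.50, had its summit 32 bp from the TSS of AT3G08980.

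The 35S peak over PDIL1-1 was 145830 bp wide under NS, with FE 3.09 at a summit 74679 bp from the TSS. The 35S HS peak was 59104 bp wide with FE 1.76. Both covered 100% of the gene, and neither locates binding at PDIL1-1. PDIL1-3, which had no NP peak, had a 35S NS peak 523 bp wide with FE 1.70 and a summit 75 bp upstream of the TSS. The 50 bp on either side of that summit held the 2 G-boxes printed above. PDIL2-3 had 35S peaks near its start in both conditions, with FE 1.34 under NS (summit 83 bp upstream) and 1.46 under HS (72 bp upstream), and stronger ones at its 3′ end, with FE 1.37 and 1.92. At ERdj3B, which had the strongest NP HS peak, the deposited 35S peak was that of AT3G62590, with FE 1.51 under NS.

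The change from NS to HS was read from the strongest peak of each gene in each list. In the NP lists FE was higher under HS at 2 of 2 genes with peaks in both conditions, against 91.7% of 554 such genes. The median log2 change of those 554 genes was 0.76, with quartiles of 0.36 and 1.14. The values of ERdj3A (1.17) and ERdj3B (1.89) were above the upper quartile. In the 35S lists the log2 changes were −0.81 at PDIL1-1, 0.48 at PDIL2-3 and −0.28 at ERdj3A. None of these 3 changes compares a single site, since the summits of the strongest peaks lay 77531 bp apart at PDIL1-1, 647 bp apart at PDIL2-3 and 3242 bp apart at ERdj3A. The 35S peak over the start of ERdj3A changed by −0.38. Depth and the control pools differed between NS and HS in both constructs, and their part in these values was not tested.

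The other genes of the same folding machinery were taken as 25 further genes, chosen by function with earlier results of these data known. None of the other 7 isomerase genes, the ER translocon J protein genes ERdj2A and ERdj2B, or the oxidase gene ERO2 had an NP main-set peak. Of the 25 genes, 9 had a main-set peak under NS and 10 under HS. A peak was called in both conditions at 8 and under HS alone at 2, compared with 4 of the 9 isomerase and J protein genes. The 2 genes were BIP2, with FE 9.59 and a summit 77 bp downstream of its TSS, and SDF2, with FE 6.83 and a summit 70 bp upstream. BiP and SDF2 are the direct partners of ERdj3B. BIP1, a near-identical paralog of BIP2, had a deposited NP HS peak with FE 12.5 in the pericentromere, outside the main set. BZIP60, which encodes the UPR factor bZIP60, likewise had deposited NP peaks in the pericentromere, with FE 3.10 under NS and 3.77 under HS. The 2 BiP copies can share reads in their coding parts, so their peaks are uncertain.

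ERO1, which reoxidises the isomerases, had FE 3.01 under NS and 6.76 under HS, a log2 change of 1.17. Its summits were 69 bp and 70 bp upstream of the TSS. SHD, the ER HSP90, went from FE 3.98 to 28.6, and CNX1, a lectin chaperone that receives glycoproteins, from 7.34 to 22.7. The calreticulin genes CRT1a and CRT1b went from 3.81 to 8.31 and from 3.98 to 11.3. BZIP28, the ER-anchored UPR transcription factor, went from 3.87 to 5.23. These are 6 of the 8 genes called in both conditions. They are the ones with both summits within 250 bp of the TSS, and their log2 changes ran from 0.43 to 2.85 with a median of 1.34. The other pair were BIP3, with summits over 3 kb from its TSS, and AT5G07340, where the NS and HS peaks lay 2670 bp downstream and 1 bp upstream of the TSS. CRT3 was called under NS alone, with FE 2.75 and a summit 4236 bp from its TSS. No difference between the 9 genes and these lists was tested.

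**Figure D4:**
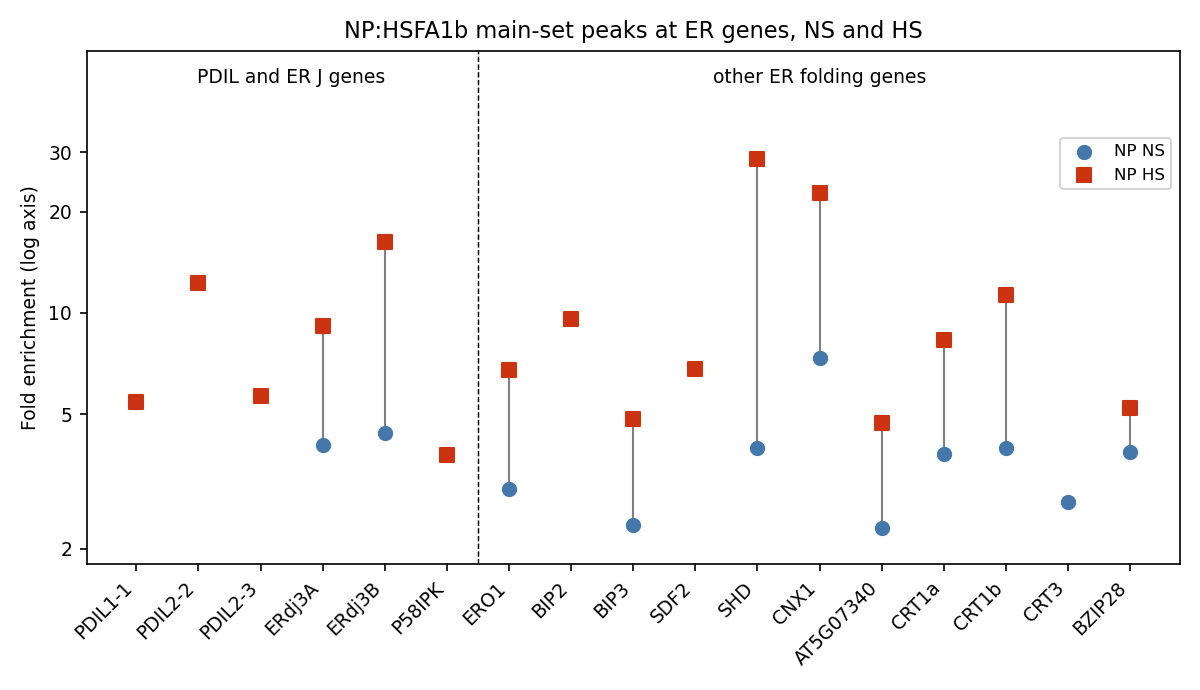
FE (log axis) of the strongest NP main-set peak under NS (circles) and HS (squares) for each ER gene with such a peak, with lines joining genes called in both conditions and a dashed line between the isomerase and J protein genes and the other ER folding genes. All 10 joined genes have the higher value under HS, and PDIL1-1, PDIL2-2, PDIL2-3, P58IPK, BIP2 and SDF2 have an HS value alone.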

How the data were processed

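The paper reports mapping of paired-end reads to TAIR10 with GSNAP, removal of duplicates with SAMtools and peak calling with MACS2. Per the file headers the caller was version 2.0.10.20131028. Those headers still gave redundant shares of 31% to 46% in the treatment pools and 44% to 64% in the control pools, which the caller filtered. The deposited lists give each peak's interval and summit position, its pileup (a coverage signal in fragments), its fold enrichment (a ratio over background) and the −log10 q-value. A second deposited format and a summit file hold the same peaks and were not used. Pileups of 35S HS had been scaled by 0.721, which was divided out of the pileups printed here but not of the background. Background was recovered from pileup and fold enrichment with the pseudocount of 1 that the caller adds.

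Genes, TSSs and sequences came from the RefSeq copy of the same assembly, and all loci matched. The TSS is the outermost annotated start. Main sets left out the pericentromere, 16.7 Mb in which windows of 500 kb held under 50% of the median number of genes (130). Broad peaks over highly transcribed genes, removed by the authors with no stated rule, were kept. The 9 genes and all lists were chosen with earlier results of these data known. All 9 were named, other ER genes where they had a main-set peak in an NP list, and neighbours where their TSS was nearer to a summit. ERO2, ERdj2A, ERdj2B, BIP1 and BZIP60, which fall outside this rule, were named after their values were seen. Poisson intervals are at 95% and cover the counting error of the summit pileup only. Alternatives changed the FE and q limits, the window, the peak width, the assignment rule, the scaling of the pileup and the motif window. Scripts ran in Python 3.11.15 with pandas 2.3.3 and numpy 2.4.6 and were tested on simulated intervals.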

Additional observations from a re-analysis of the deposited data

Results flagged for a closer look

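At ERdj3A the FE was higher under HS in the NP lists and lower under HS in the 35S lists. The log2 change in FE of the strongest peak was 1.17 in the NP lists and −0.28 in the 35S lists. The difference was not tested, since each list is 1 pooled call, and the strongest 35S HS peak lay near the TSS of AT3G08980.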

How the results depend on the processing

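Of 63 alternatives, 47 left the value within 1.5 times of the reported count, or unchanged for other values. The NP counts of 2 and 6 genes were the same under all 9 alternatives for peak limits, windows and assignment. The 35S counts were not. Under NS the count of 2 became 5 with no FE limit, 1 with summits within 250 bp of the TSS, with peaks up to 1000 bp or with the summit in the window, and 0 with the nearest TSS. Under HS the count of 1 became 3 with no FE limit, 0 with FE of at least 3 and 0 with the nearest TSS. The median NP log2 change of 1.53 became 1.37 with pileup per pool size. The median 35S log2 change of −0.28 became −0.25 with pileup, −0.38 with overlapping peaks, and 0.094 with summits nearest to the TSS of the gene itself, an alternative added after the data were seen. That last value is from PDIL2-3 alone and sets its NS peak at the 3′ end against its HS peak at the start, so it is no change at 1 site. G-boxes within 100 bp of a summit were found at 3 genes in place of 1. The median share of each gene covered in the 35S NS list, 1.22%, became 0 with peaks up to 1000 bp and 0 with main-set peaks. From the innermost start, also added later, summits within 250 bp fell from 2 to 1 under NS. The cause was not tested for any of these. No paired analysis was possible because the caller had pooled the libraries. The single pooled calls, the lower depth of NP HS and the low FE of the 35S lists limit these values.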
